A study of Mus musculus with 8 samples.

Results

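The genes described here are 9 genes that mark mature B cells: Cd79a, Cd79b, Ms4a1, Pax5, Ebf1, Cd22, Fcer2a, Cr2 and Blk. They were taken by symbol from a deposited table of 23084 genes, in which each of the 9 occurs in 1 row. RNA-sequencing was performed on CD11b+Ly6C+ (monocytic) and CD11b+Ly6G+ (granulocytic) myeloid cells sorted from the spleens of C57BL/6 mice of 6 to 8 weeks. The 8 samples form 4 groups of 2, wt CD11b+Ly6C+, wt CD11b+Ly6G+, LmnaMyeKO CD11b+Ly6C+ and LmnaMyeKO CD11b+Ly6G+. LmnaMyeKO mice carry floxed Lmna and LysM-Cre, a Cre expressed from the Lyz2 locus of myeloid cells, and wt mice keep lamin A/C. Whether wt mice carried either allele is not given in the sources used here, nor is the tumor status of the mice behind these libraries. The subset of a sample was read from its title, because the cell marker label says CD11b+Ly6C+ for every sample.

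The table sets wt CD11b+Ly6C+ cells against LmnaMyeKO CD11b+Ly6C+ cells. The only values in it that are not the authors' own test of that comparison are their mean signals, which are counts divided by size factors and averaged over samples. The sources do not name the samples averaged, so each value below is 1 authors' mean per gene with no error, no n and no depth. Levels per sample, and the change of these genes with lamin A/C, were not analysed here. In sorted bulk RNA, the number of B cells and the amount of B cell RNA per cell cannot be told apart.

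A B cell recognizes antigen through a membrane immunoglobulin that cannot signal on its own. It is paired with the Cd79a and Cd79b chains, whose tyrosines are phosphorylated by Src family kinases such as Blk and Lyn and then recruit Syk. Coreceptors set the threshold of that signal: Cr2 (CD21) lowers it, while Cd22 carries inhibitory motifs that recruit the phosphatase encoded by Ptpn6. Ebf1 and Pax5 are the transcription factors that establish and hold the B cell program, and Cd79a is a classical target of both. The spleen is rich in mature B cells, and neither sort was designed to keep them.

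All 9 genes had a mean signal above 0, as did each of the 23084 genes of the table, so presence alone does not set the 9 apart. Because reads accumulate with transcript length, genes were compared by the mean signal divided by the length in kb of all annotated exons. On this scale the 9 genes ran from 80.4 for Ebf1 to 4065 for Cd79a, with a median of 718. The median of the 23004 genes matched to the annotation was 18.8, and the member median was 38.1 times that value. Of the 9 genes, 7 lay above the 90th percentile of the table, and the members outside it were Cr2, at percentile 84.2, and Ebf1, at percentile 66.9. That count depends on the genes ranked. Over genes with a mean signal of at least 10, the members' median percentile was 89.0. The sum of the 9 genes made up 0.107% of the summed signal per kb. All of these are descriptions of 1 mean, and with no spread to set beside them no difference between neighbours in the order was tested.

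Cd79a and Cd79b, the obligate partners of the antigen receptor, stood highest per kb. Cd79a (ENSMUSG00000003379, mm10 chromosome 7 from 24897381 to 24902197, plus strand) had a mean signal of 5923 and 4065 per kb. Cd79b (ENSMUSG00000040592, chromosome 11 from 106311341 to 106314762, minus strand) had a mean signal of 4531 and 3166 per kb. The chains, which enter the receptor as a pair, thus differed by a ratio of 1.28 per kb, and together they held 64.8% of the summed level of the 9 genes. The next gene, Cd22, was 3.12 times lower than Cd79b per kb. By the mean signal itself Cd79a was also first, but Cd79b was 5th, below Cd22, Ms4a1 and Pax5.

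Blk, a Src family kinase largely restricted to the B lineage, was far below the chains it phosphorylates. Blk (ENSMUSG00000014453, chromosome 14 from 63372836 to 63417037, minus strand) had a mean signal of 1321 and 490 per kb. Cd79a was 8.30 times higher per kb, and Blk was 7th in the order of the 9.

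The 4 surface genes lay between 289 and 1014 per kb. Cd22 (ENSMUSG00000030577, chromosome 7 from 30865402 to 30880342, minus strand), the inhibitory sialic acid receptor, had a mean signal of 5111 and 1014 per kb. Ms4a1 (ENSMUSG00000024673, chromosome 19 from 11249675 to 11266241, minus strand), which encodes CD20, had a mean signal of 5085, close to that of Cd22, and 822 per kb. Fcer2a (ENSMUSG00000005540, chromosome 8 from 3681737 to 3694175, minus strand) encodes the low-affinity IgE receptor CD23 of follicular B cells. Its mean signal was 2219, or 718 per kb. Cr2 (ENSMUSG00000026616, chromosome 1 from 195136811 to 195176716, minus strand), from which the mouse makes both complement receptors CR1 and CR2 by splicing, had a mean signal of 2341. Its exons add up to 8.11 kb against 3.09 kb for Fcer2a, so Cr2 was 2.49 times lower than Fcer2a per kb although its mean signal was slightly higher.

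The transcription factors differed from each other. Pax5 (ENSMUSG00000014030, chromosome 4 from 44524757 to 44710487, minus strand) had a mean signal of 4566 and 516 per kb. Ebf1 (ENSMUSG00000057098, chromosome 11 from 44617317 to 45008091, plus strand) had the lowest mean signal of the 9, at 785, and 80.4 per kb. Per kb, Ebf1 was 6.41 times lower than Pax5 and 50.5 times lower than Cd79a. Ebf1 was last under each length definition tried and also by the mean signal itself.

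**Figure D1:**
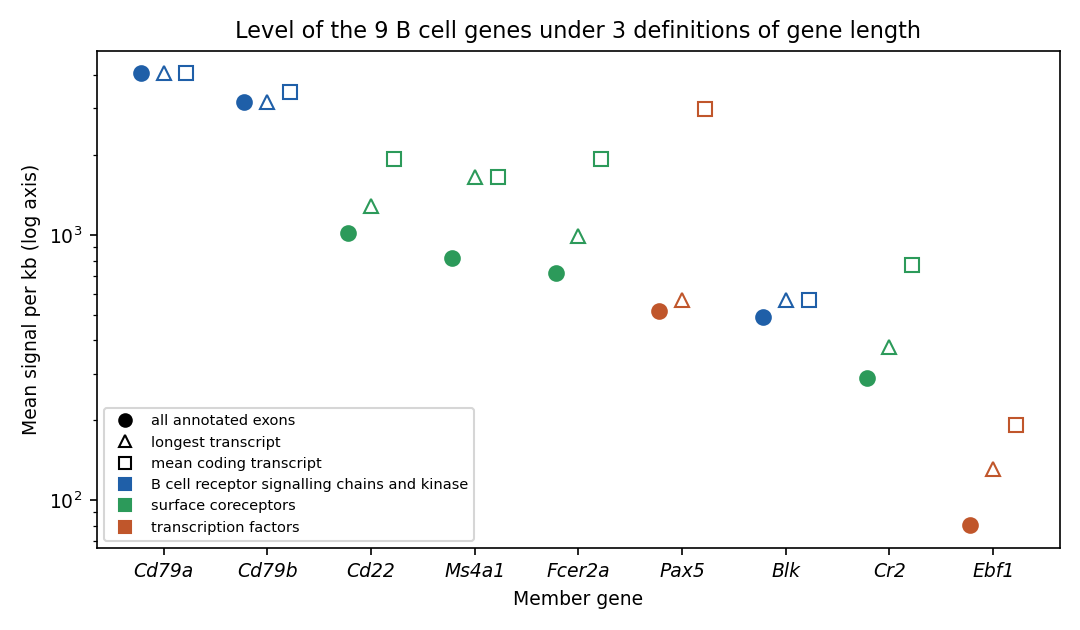
Level of each of the 9 genes (x axis, ordered by level) as the authors' mean signal per kb on a log axis (y axis), with the length taken as all annotated exons (filled circles), the longest transcript (open triangles) or the mean coding transcript (open squares) and colors for the role of the gene. Cd79a is first and Ebf1 last under all 3 lengths, while Pax5 moves from 516 to 2994.

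Annotated lengths differ widely for some members, and the order depends on the length chosen. Pax5 has 20 annotated transcripts, with 8.85 kb of exon in all, and its level was 516 per kb of all exons, 571 per kb of the longest transcript and 2994 per kb of the mean coding transcript. With the mean coding transcript Pax5 took the third place, Fcer2a the fourth and Cd22 the fifth, and 3 of the 9 genes kept their place (Cd79a, Cd79b and Ebf1). With the longest transcript 7 of the 9 kept theirs, and Ms4a1 (1654 per kb) and Cd22 (1286 per kb) changed places. By the mean signal without length 2 of the 9 kept their place, Cd79a and Ebf1. Cd79a, with 1 annotated transcript, had the same level under each length. Exons of other genes overlap those of Pax5 and Cd22 on the opposite strand. For Pax5 these are 5730488B01Rik (mean signal 39.5, over 7.18% of the exon bases) and Gm12462 (0.795), and for Cd22 Gm29439 (2.49). Whether the reads were counted by strand is not given in the sources used here. No annotated exon of another gene overlaps those of the other 7 members.

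Promoter sequences from RefSeq (GRCm38.p6, the build of mm10), each with 250 bases before and 50 after a start, were matched for 6 of the 9 genes, with 9 promoters in all. They cover Cd79a, Cd22, Fcer2a, Cr2, Pax5 and Ebf1. Their median GC content was 52.3%, against 52.7% for all 32851 promoters of the table. The GC content ran from 36.7% at 1 Ebf1 start to 59.0% at Pax5, which also had the most CpG dinucleotides, 23 against a median of 7 over all promoters. Motifs of 3 kinds, bound by factor families active in B cells, were searched on both strands. The octamer ATGCAAAT was in 0 of the 9 promoters and in 1.74% of all promoters. The ETS type motif GGAAGTG was in 1 of the 9, that of Cd79a, and in 11.0% of all. The EBF type motif, TCCC and GGGA with any 2 bases between them, was in 1 of the 9, that of Cd22, and in 0.904% of all. Windows of 30 bases around these matches are shown 5′ to 3′ on the strand of the gene, with the motif in capitals, because they are the matches among the promoters of these genes.

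Cd79a, chr7:24897432-24897461, plus strand, 54 to 48 bases before the RefSeq start and within an annotated UTR of Cd79a in GENCODE M21: acggctgaacaGGAAGTGaggcggagtttg

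Cd22, chr7:30879058-30879087, minus strand, 49 to 40 bases before the RefSeq start and outside annotated Cd22 exons: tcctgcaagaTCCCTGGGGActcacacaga

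The Cd22 window lies inside the annotated span of Cd22 in GENCODE M21 (30865402 to 30880342), not upstream of the gene. A match is a run of letters in the window and does not show that a factor was bound.

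Other genes of the B lineage were set beside the 9. All 20 further B cell genes examined, 10 of the surface and 10 regulators or adaptors, had a level per kb above that of Ebf1, from 87.5 for Cd40 to 2967 for Ly6d, a surface antigen of the B lineage. By the mean signal itself Cd40 (298) and Id3 (210) were below Ebf1 (785). Their median was 409 per kb, and the member median was 1.76 times higher. Of these 20 genes, 5 reached the member median, among them Ly6d, Fcrla (776 per kb), Spib (1061) and Pou2af1 (894), a coactivator of octamer factors. The regulators Foxo1 (135 per kb) and Id3 (117) were the lowest of their list, between Ebf1 and Cr2. Tcf3, which encodes E2A, a factor that acts with Ebf1 early in the lineage, had 522 per kb of all exons beside 516 for Pax5, while by the mean signal itself Pax5 was 2.17 times higher than Tcf3.

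Per kb, of 6 immunoglobulin constant region genes, 2 lay above Cd79a, and all 6 lay above the member median. By the mean signal itself Ighd (6060) was also above Cd79a (5923). Iglc1 (1353), Iglc2 (1888) and Iglc3 (752) were then below Cd79b (4531), the 5th of the 9, and Iglc3 was below Ebf1 (785) too. Ighm had 33999 per kb and Igkc 76527, which were 8.36 and 18.8 times the level of Cd79a. Ighd, which mature naive B cells express together with Ighm, had 3190 per kb, near Cd79b. Iglc1, Iglc2 and Iglc3 lay between 1664 and 3085 per kb, and reads of the near-identical Iglc2 and Iglc3 may be split between those genes. Jchain, which joins secreted IgM and IgA and is strongly expressed in plasma cells, had 4310 per kb, 1.06 times Cd79a. The other plasma cell genes went from 30.1 for Tnfrsf17 to 1155 per kb for Xbp1, and 5 of the 7 genes of that list lay below the member median.

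Genes of B cell precursors were low beside the mature genes. All 7 lay below the member median, from 7.68 for Rag2 to 290 per kb for Vpreb3, and 5 of them were below Ebf1, the lowest member. The member median was 15.5 times the precursor median of 46.4 per kb. Igll1, whose product is part of the surrogate light chain of the pre-B cell receptor, had 38.5 per kb. Rag1, which cuts antigen receptor genes during rearrangement, had 46.4 per kb. Per kb Vpreb3 (290) was level with Cr2 (289), and Il7r (126) was above Ebf1 (80.4). By the mean signal itself Vpreb3 (249) and Il7r (588) were below Ebf1 (785). Members and lists were chosen with earlier results of these data known, so these levels are no test of the mature label.

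The part of the B cell receptor pathway that myeloid cells also use showed another level. The 13 genes of this list had a median of 1527 per kb, 2.13 times the member median, and 10 of the 13 reached the member median. Ptpn6, which encodes the phosphatase recruited by Cd22, had 6300 per kb, and Spi1, the gene of the myeloid and B cell factor PU.1, had 4622, both above Cd79a. Lyn had 3000 per kb and Syk 2403. The lowest genes of this list were Fcgr2b (328 per kb), the inhibitory IgG receptor, and Irf8 (489).

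**Figure D2:**
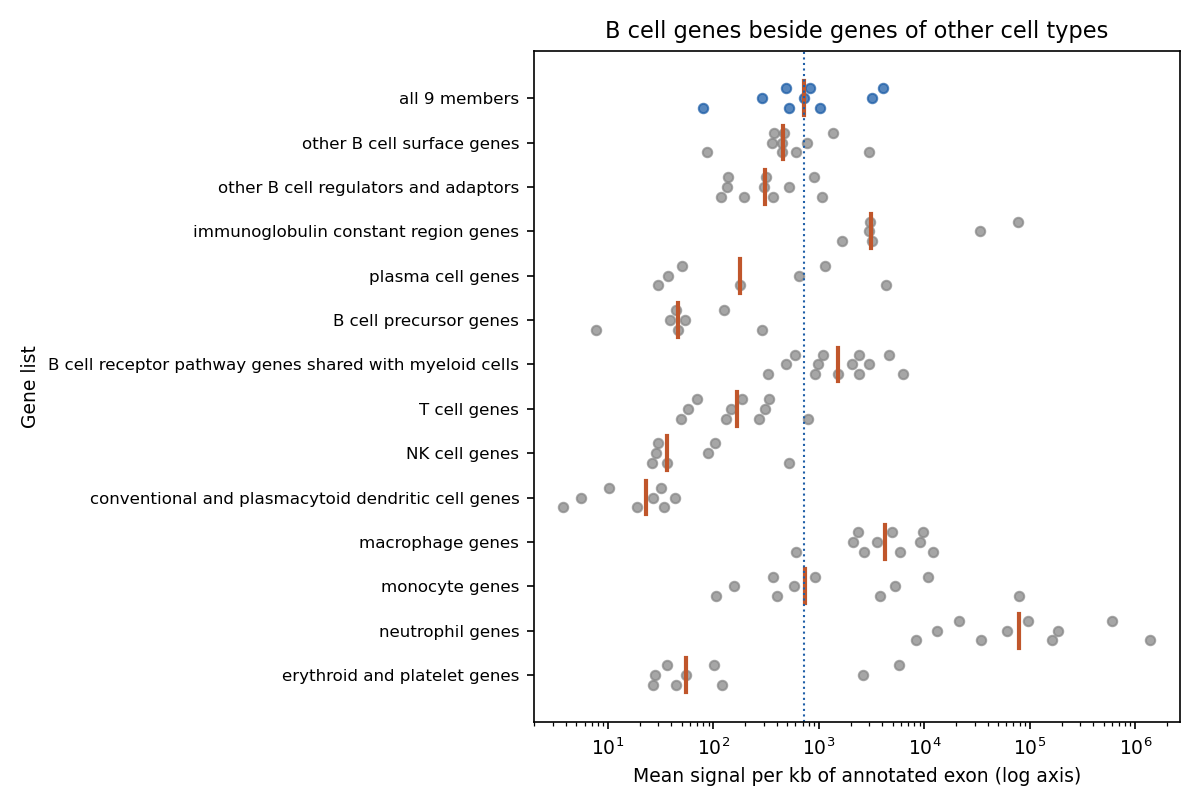
Authors' mean signal per kb of annotated exon (x axis, log scale) for each gene of 14 lists (y axis), with 1 point per gene, blue for the 9 members, an orange bar at the median of each list and a dotted line at the member median. The members' median of 718 lies above the medians of the other B cell, T cell, NK cell, dendritic cell, precursor, plasma cell and erythroid lists. It lies below those of the immunoglobulin, shared pathway, monocyte, macrophage and neutrophil lists. In the erythroid and platelet list, with a median of 54.4, Hba-a1 (5741 per kb) is above Cd79a.

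Genes of other cell types were read from the same mean. The T cell list had a median of 168 per kb, and the member median was 4.28 times that. Per kb the lists overlapped, with 7 of the 10 T cell genes above Ebf1. By the mean signal itself Lck (912) was the only T cell gene of the list above Ebf1 (785). Of the 10 T cell genes, Trbc2 (787 per kb, mean signal 545) reached the member median per kb, while Cd8b1 had 335, Cd3d 269 and Cd28 49.4 per kb. NK cell genes had a median of 36.1 per kb, and 7 of 7 lay below the member median. The highest was Nkg7, a cytotoxic granule gene, at 519. Per kb, the 8 dendritic cell genes were all below Ebf1, from 3.77 for Xcr1 to 43.6 for Cd209a, but by the mean signal itself Tcf4 (873) was above Ebf1 (785).

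Lists of myeloid genes had medians above that of the members. The monocyte list had a median of 744 per kb, 1.04 times the member median. It ran from Klf4 at 105 per kb and Cx3cr1 at 157, both below Cr2, to Lyz2 at 79128 per kb. Of the genes of the sort, Itgam (CD11b) was high at 10760 per kb, 2.65 times Cd79a, and so was Ly6c2 at 5260. Ly6c1, the other Ly6C gene of that list, had only 37.1 per kb (mean signal 62.2), below Ebf1. Ly6g, the marker of the granulocytic sort, had 8337 per kb. The 10 neutrophil genes were all above Cd79a and summed to 24.6% of all signal per kb, led by S100a9. The macrophage list had a median of 4212 per kb, 5.87 times the member median, and 5 of its 10 genes were above Cd79a, with Hmox1 at 12182 and C1qb at 9704. How far granulocytic samples enter the mean is not stated, and the part of each cell type in the members' levels was not tested. Lmna, the deleted gene, had a mean signal of 79.5 and 13.6 per kb, which as a mean over samples does not check the genotype labels.

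Each member was also set beside relatives of its own family, in lists written after their values had been seen. Src kinases that myeloid cells express stood above Blk, with Fgr at 4856 and Lyn at 3000 per kb, which was 9.91 and 6.13 times Blk. Lck, the Src kinase of T cells, had 311 per kb, and Blk was 1.57 times higher. Among the sialic acid receptors, Siglece (3336 per kb) and Cd33 (3282) of myeloid cells were 3.29 and 3.24 times Cd22, while Siglec1 (223), a gene of macrophages, and Siglecf (187) lay below Cd22. Siglecg, the other inhibitory receptor of this family on B cells, had 424 per kb and was 2.39 times lower than Cd22.

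Ms4a1 was second of 13 MS4A genes. Ms4a6c, a gene of monocytes, had 1046 per kb, 1.27 times Ms4a1, and Ms4a4c had 696. By the mean signal itself, without length, Ms4a1 was 2.37 times higher than Ms4a6c, so their order depends on the length. Fcer1g, the signalling chain shared by many myeloid Fc receptors and unrelated in sequence family to the lectin Fcer2a, had 13573 per kb, 18.9 times Fcer2a. Cr2 and Cr1l, which encodes a complement regulator, were close, at 289 and 256 per kb, and by the mean signal itself Cr1l was the higher, at 2652 against 2341.

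The listed relatives of the transcription factors had almost no signal. The EBF and PAX lists hold 3 genes each, and other genes of these families were not examined. Ebf3 and Ebf4 had 0.177 and 0.0875 per kb beside 80.4 for Ebf1. Pax8 and Pax7 had 2.04 and 1.35 per kb beside 516 for Pax5. In these lists nearly all the signal belonged to the B cell member.

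**Figure D3:**
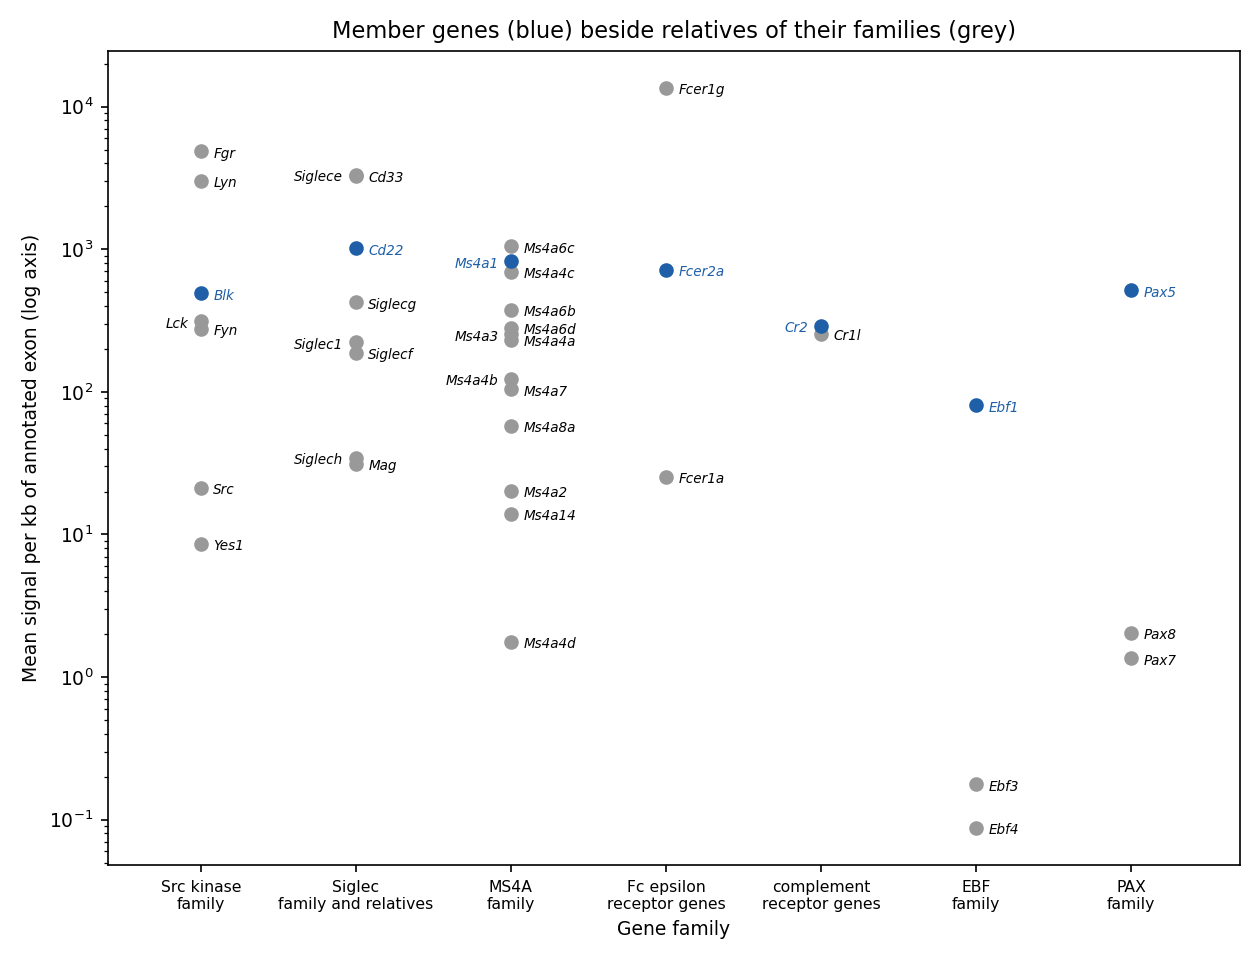
Authors' mean signal per kb of annotated exon (y axis, log scale) for the members (blue) and relatives or genes of like name (grey) in 7 groups of genes (x axis), with 1 point per gene. Blk and Cd22 lie below myeloid relatives (Fgr at 4856, Siglece at 3336), while Ebf1 and Pax5 lie far above theirs.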

How the data were processed

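RNA-sequencing reads of 8 samples were processed by the authors: trimming with Cutadapt 1.14, alignment to mm10 with STAR 2.5.2b, quantification with RSEM 1.3.0 and GENCODE M12, and comparison with DESeq2 1.20.0 by the authors (versions per the submitters' processing notes). The deposited table gives for each gene a mean signal, which the authors made by dividing counts by size factors and averaging over samples that are not named. Its other columns hold the authors' comparison of the genotypes (fold change, its error, test statistic and p-values) and were not used. No values per sample were analysed here, so no test was run and the depth behind a value is unknown.

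Mean signals were divided by the union of annotated exons in GENCODE M21 (mm10 as well, but newer than the authors' M12), which matched 23004 of 23084 identifiers. Percentiles and shares are over the matched genes. Repeated symbols (28) were represented by their strongest row. The longest transcript, the mean coding transcript, no length, protein-coding genes only, a mean signal of at least 10 and summed rows were tried as alternatives. The calculation of levels was tested on simulated data. Protein sequences were not analysed here, and some genes of the lists are not reported by name.

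All 9 members are named, and a list is given by its counts, range and median with at most its 4 highest and 2 lowest genes. The members and lists were chosen with earlier results of these data known, and the lists of gene families and of B cell subsets were added after signals had been seen, with their genes named outside that rule. Python 3.11.15 and pandas 2.3.3 were used.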

Additional observations from a re-analysis of the deposited data

How the results depend on the processing

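No paired analysis was possible because 1 authors' mean per gene was the only value used. The planned test of genotype, other normalizations and fits that leave out a replicate could not be run on it. With no spread between replicates, any change of a value is given. With the longest transcript, the members' median percentile was 93.3, their share of the summed level 0.101%, the ratio of Cd79a to Ebf1 31.0, and the ratio of the member median to the T cell median 4.77, to the precursor median 17.0 and to the median of the other B cell genes 1.63. With the mean coding transcript these were 92.7, 0.109%, 21.2, 7.91, 28.1 and 2.14. Without length they were 95.4, 0.126%, 7.55, 9.20, 36.5 and 2.87. Over protein-coding genes only, the percentile was 90.6, the share 0.117% and the ratio to the T cell median 4.88, since Trbc2 drops out. Over genes with a mean signal of at least 10, the percentile was 89.0 and the share 0.107%. The median member then lay below the 90th percentile, so most of the 9 were below it, whereas 7 were above it over all matched genes. Summing the rows of a repeated symbol changed none of the 3 list ratios. In each alternative the member median stayed above those of the T cell, precursor and other B cell lists, and Cd79a stayed above Ebf1.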

Other observations

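Genes of B cell subsets were examined in lists written after other signals had been seen. Germinal centre genes were low beside the mature set, with S1pr2 at 43.7 per kb and Rgs13 at 19.9, and 4 of 5 lay below the member median of 718 per kb. The exception was Bcl6 (753 per kb), which myeloid cells also express. Of 8 genes linked to marginal zone or B-1 cells, 7 lay below the member median, among them Cd1d1 (239 per kb), Dtx1 (180), Cd5 (58.0) and Bhlhe41 (12.5), while Cd9 had 3216 per kb and is also a gene of platelets and myeloid cells. All 5 genes of the follicular list, Fcer2a among them, had at least 347 per kb, and 3 of the 5 lay below the member median, which is the level of Fcer2a. Klf2 (2250 per kb) is widely expressed in leukocytes. Which cells gave the signal of the other genes in these lists was not tested, so the lists assign no B cell subset. These are values of 1 authors' mean with no error.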
